A study of Mus musculus with 4 samples.

Results

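The 7 transporter genes described here, relatives of the creatine transporter gene Slc6a8 that were followed across the cell types of the mouse cerebral cortex, were Slc6a6, Slc6a7, Slc6a9, Slc6a11, Slc6a13, Slc6a15 and Slc6a17. They were chosen by gene symbol, and all 7 were found among the 21933 genes of the count tables. Nuclei came from the right cortex of adult male C57Bl/6J mice that lack several exons of Slc6a8 in every cell (CrT-KO, CrT-/y, 2 animals) and from wild-type littermates that carry the intact gene (Control, CrT+/y, 2 animals). No animal was treated, each library holds the nuclei of 1 animal, and nuclei sorted by flow cytometry went into single-nucleus RNA sequencing, which counts unique molecular identifiers (UMIs), each standing for 1 captured RNA molecule. With 2 animals a group, the spread within a genotype rests on a single pair of libraries throughout. The question was where in the cortex each relative of the transporter is expressed and whether its level differed between CrT-KO and Control nuclei.

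SLC6 proteins sit in the cell membrane and use the inward gradients of sodium and, in most cases, chloride to carry small molecules into the cell, such as neurotransmitters, amino acids and osmolytes. In the brain the family clears GABA, glycine and monoamines from the space around synapses and supplies neurons and glia with taurine, proline, creatine and neutral amino acids. Among the genes followed here, Slc6a17 (NTT4) and Slc6a15 (B0AT2) encode carriers of neutral amino acids, the former found on synaptic vesicles, and Slc6a7 (PROT) encodes the high-affinity proline transporter of glutamatergic terminals. Slc6a6 (TauT) encodes the taurine transporter, Slc6a9 (GlyT1) a glycine transporter, Slc6a11 (GAT3) a GABA transporter of astrocytes, and Slc6a13 (GAT2) a GABA and taurine transporter of the meninges.

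In GRCm38, with gene bodies as annotated by GENCODE vM21, Slc6a17 (ENSMUSG00000027894) lies on the minus strand of chromosome 3 from 107467543 to 107518018. Slc6a15 (ENSMUSG00000019894) lies on the plus strand of chromosome 10 from 103367783 to 103419377, and Slc6a7 (ENSMUSG00000052026) on the minus strand of chromosome 18 from 60995380 to 61014222. Slc6a9 (ENSMUSG00000028542) lies on the plus strand of chromosome 4 from 117834506 to 117875198. Slc6a6 (ENSMUSG00000030096, 91684053 to 91759066), Slc6a11 (ENSMUSG00000030307, 114131241 to 114249952) and Slc6a13 (ENSMUSG00000030108, 121300227 to 121337733) all lie on the plus strand of chromosome 6. Reads were counted over the whole gene body, introns included, since nuclei hold mostly unspliced RNA. Of the 7 gene bodies, that of Slc6a9 overlapped other counted genes, Ccdc24 and B4galt2, both on the opposite strand.

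The 4 libraries held 8282 to 9295 nuclei and 51507483 to 65240843 UMIs each, with a median of 5548 to 6701 UMIs per nucleus. After removal of 1236 predicted doublets, 34458 nuclei were grouped by expression with the SLC6 genes left out of the grouping, and named from marker genes as 7 classes and, within them, subclasses written "-like". For astrocytes, oligodendrocytes, oligodendrocyte precursors (OPCs), microglia and the class of endothelial cells and pericytes, every measured marker was highest in its own class, and for excitatory and inhibitory neurons 9 of 12 and 9 of 11 were. The class of endothelial cells and pericytes held 452 nuclei, of which 76 were endothelial-like, 95 pericyte-like and 50 fibroblast-like. The unnamed vascular nuclei were 27 in Control 1, 69 in Control 2, 75 in CrT-KO 1 and 60 in CrT-KO 2. The largest group among them, of 153 nuclei, was led by genes that included Ryr3, Camk4 and Rbfox3. Libraries shared 12 to 19 cell barcodes with one another. The inhibitory class held MSN-like nuclei with genes of striatal projection neurons, 570 to 787 per library, so the dissected tissue was not cortex alone. A further 500 to 725 of the 1859 to 2271 inhibitory nuclei per library matched no subclass. Groups among them were led by genes that included Prlr (899 nuclei) and Chat (250 nuclei). Values of the inhibitory class are therefore not those of cortical interneurons alone. Of the excitatory nuclei, 485 to 578 per library matched no subclass. As a check of the labels, 348 and 334 UMIs of Slc6a8 itself were found in Control 1 and Control 2, against 101 in CrT-KO 1 and 79 in CrT-KO 2. On the log2 scale the level of Slc6a8 over all nuclei fell by 1.95 (SE 0.154, adjusted p = 0.0117, edgeR quasi-likelihood test with Benjamini-Hochberg adjustment). UMIs outside the deleted exons still count towards this gene. The same test called Slc6a8 in excitatory neurons (adjusted p = 0.00045), inhibitory neurons (adjusted p = 0.0152) and oligodendrocytes (adjusted p = 0.0647), but without CrT-KO 1 or CrT-KO 2 its adjusted p in excitatory neurons was 0.847 or 0.770 at the same difference.

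Levels are given for each library as CPM, the UMIs of the gene per 1000000 UMIs of the population, and 2 populations are called apart where the ranges of their 4 libraries do not overlap. The populations were made from these same nuclei, so the levels are a description and carry no test. Counting error is the only error that the UMI numbers themselves show, and the range over libraries adds the differences between animals.

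**Figure D1:**
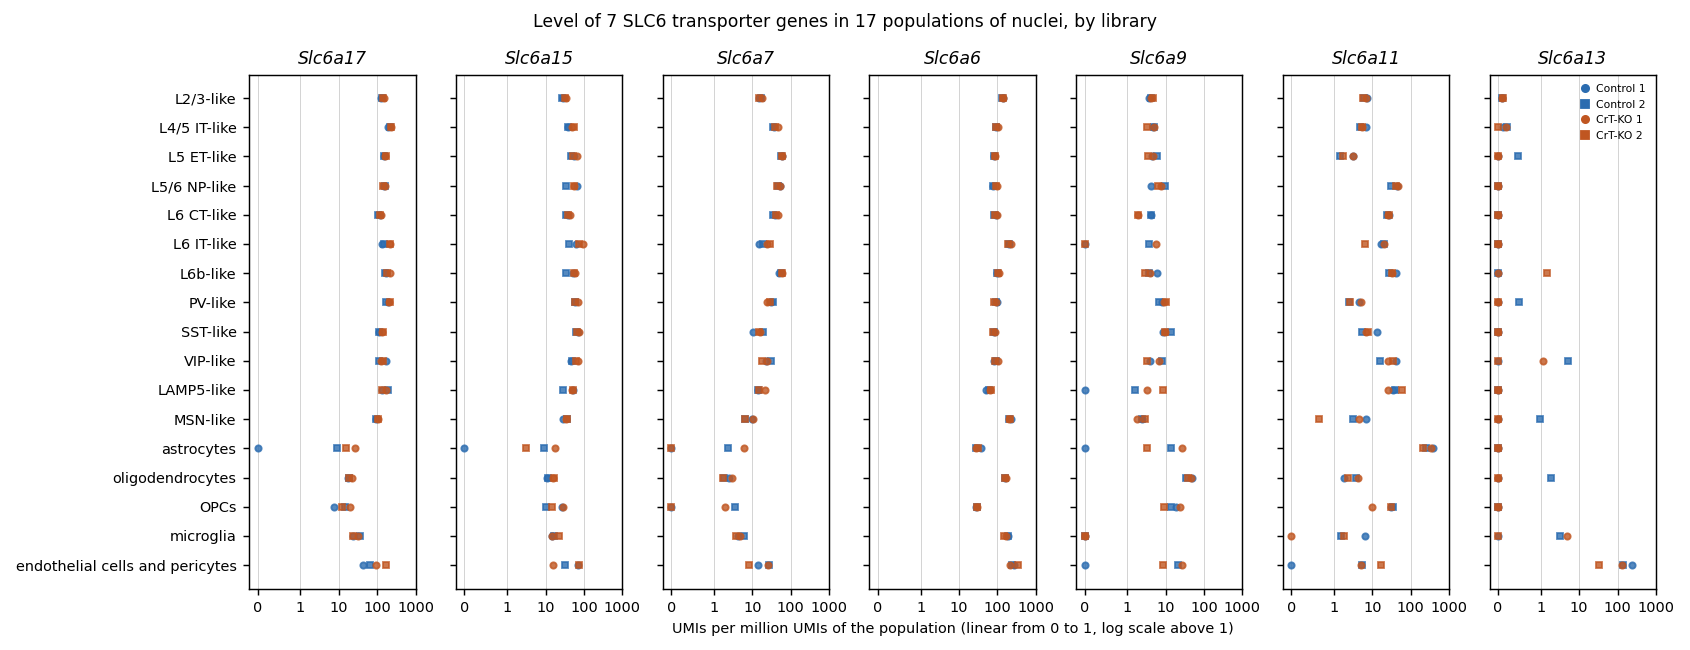
Level of each of the 7 genes (columns) in 17 populations of nuclei (rows) in CPM, on an axis that is linear from 0 to 1 and logarithmic above; each point is 1 library, blue for Control and orange for CrT-KO, circles for replicate 1 and squares for replicate 2. Slc6a17, Slc6a15 and Slc6a7 are high in the neuronal rows, Slc6a9 is highest in oligodendrocytes, Slc6a11 in astrocytes and Slc6a13 in the class of endothelial cells and pericytes, while Slc6a6 is spread over neurons, oligodendrocytes, microglia and vascular nuclei.

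The 3 carriers of neutral amino acids and proline were highest in populations of neurons. For Slc6a15 and Slc6a7 the vascular class stood among the neurons in the order, at a median of 50.8 and 19.9 CPM on 23 and 12 UMIs. That class included the unnamed vascular nuclei, 27 to 75 per library, so these are not levels of endothelial cells and pericytes alone. Slc6a17 had the most UMIs of the 7 genes, 31697 over all nuclei, of which excitatory neurons held 68.5% and inhibitory neurons 21.2%. Its level in excitatory neurons was 147 and 155 CPM in the Control libraries and 174 and 169 CPM in the CrT-KO libraries. In inhibitory neurons it was 129 and 120 CPM in Control and 139 CPM in each CrT-KO library. It was therefore a gene of both neuron classes.

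Within the neurons, Slc6a17 was highest in L4/5 IT-like nuclei, the intratelencephalic neurons of the middle layers, at 191 and 212 CPM in Control and 229 and 230 CPM in CrT-KO. PV-like interneurons, the parvalbumin type, followed with 192 and 169 CPM in Control and 204 and 216 CPM in CrT-KO. These populations were not apart, nor were any neighbours in the order down to L6 CT-like nuclei, the corticothalamic neurons of layer 6, at 108 to 123 CPM. The level in L4/5 IT-like nuclei was 1.62 to 1.99 times that in L6 CT-like nuclei of the same library. MSN-like nuclei lay apart below all cortical neuron populations, at 91.4 to 106 CPM. Along the same axis PV-like nuclei held 1.85 to 2.09 times the MSN-like level.

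Slc6a15 gave 9544 UMIs and had a flatter profile over the neurons. In inhibitory neurons its level was 51.2 and 49.9 CPM in Control and 57.9 and 55.1 CPM in CrT-KO, which was 1.15 to 1.32 times the level in excitatory neurons of the same library. SST-like interneurons, the somatostatin type, came first in the order with 62.3 to 76.7 CPM, and L2/3-like nuclei, the upper-layer excitatory neurons, came last of the neurons with 26.8 to 34.7 CPM. SST-like nuclei held 2.03 to 2.57 times the L2/3-like level. No 2 neighbours in the order of the 17 populations were apart for Slc6a15, so the profile is a gradient in which only distant populations separate.

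Slc6a7 gave 6448 UMIs, 74.0% of them in excitatory neurons, and was highest in deep-layer projection neurons. L5 ET-like nuclei, the thick-tufted neurons of layer 5 that project out of the telencephalon, held 58.7 and 57.7 CPM in Control and 61.2 and 59.5 CPM in CrT-KO. L6b-like nuclei at 50.6 to 60.8 CPM and L5/6 NP-like nuclei, the near-projecting neurons, at 44.2 to 54.1 CPM were not apart from their neighbours. L6 IT-like nuclei held 15.1 to 28.6 CPM. That name rests on 1 group of 241 nuclei, whose leading genes included Oprk1, a marker on its list, and Col11a1 and Gfra1. Galnt14 and Sulf1, also on that list, were among the leading genes of 1403 nuclei left without a name. Whether the L6 IT-like nuclei are intratelencephalic neurons of layer 6 was not tested. L2/3-like nuclei held 14.7 and 17 CPM in Control and 17.9 and 14.7 CPM in CrT-KO, so that the L5 ET-like level was 3.39 to 4.05 times the L2/3-like level within a library. Among the inhibitory neurons, PV-like nuclei held 24.6 to 34.9 CPM and MSN-like nuclei 6.42 to 10.2 CPM, a ratio of 2.42 to 5.29. Excitatory neurons as a class held 1.5 to 2.06 times the inhibitory level of this proline transporter gene.

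In glia Slc6a17 and Slc6a7 stayed below the median that markers of excitatory neurons reached in the same nuclei, and Slc6a15 lay above it. The 12 marker genes of excitatory neurons reached a median of 23.5% of their excitatory level in oligodendrocytes (range 9.37% to 60.3%), 29.6% in microglia and 15.5% in OPCs. Against that, Slc6a17 reached 11.8% of its excitatory level in oligodendrocytes and 17.8% in microglia, and Slc6a7 reached 6.36% and 13.5%. Slc6a15 reached 31.4% in oligodendrocytes, 39.5% in microglia and 46.4% in OPCs, above the marker median in each. The highest marker was Cux2 in oligodendrocytes and OPCs (60.3% and 98.0%) and Tle4 in microglia (149.9%). With ranges this wide, a level within them does not place the UMIs in glia or in neurons. Median UMIs per nucleus ranged from 7260 to 8799 in excitatory neurons and from 880 to 1034 in microglia. Whether the glial UMIs come from the glia or from neuronal RNA was not tested. In the class of endothelial cells and pericytes, where the markers reached 42.2% in the median and 109% at most, Slc6a17 stood at 56.8% and Slc6a15 at 110%.

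Slc6a6, the taurine transporter gene, was the most widely spread of the 7. It gave 25441 UMIs over all nuclei and 107 to 118 CPM in excitatory and 124 to 133 CPM in inhibitory neurons. MSN-like nuclei held 228 and 203 CPM in Control and 201 and 209 CPM in CrT-KO, which was 2.25 to 2.85 times the level in SST-like interneurons. L6 IT-like nuclei were close by at 191 to 225 CPM, and L2/3-like nuclei lay apart from both at 134 to 145 CPM. LAMP5-like interneurons, the neurogliaform type, were the lowest neurons at 51.6 to 68.0 CPM, apart from SST-like nuclei above them and from OPCs below.

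Outside the neurons Slc6a6 was at 160 and 161 CPM in Control and 172 and 154 CPM in CrT-KO oligodendrocytes, and at 188 and 189 CPM in Control and 166 and 145 CPM in CrT-KO microglia. These levels were 146% and 155% of the excitatory level, above the marker median in both classes, and in microglia just above the highest of the 12 markers, Tle4, at 149.9%. OPCs held 27.6 to 30.2 CPM and astrocytes 27.1 to 36.6 CPM, or 26.5% and 27.7% of the excitatory level. These were also above the marker medians of 15.5% and 16.7%. The highest marker was Cux2 at 98.0% in OPCs and Rorb at 678% in astrocytes, so the marker range was wide there. The oligodendrocyte level was 5.12 to 5.79 times that of OPCs. Oligodendrocytes and their precursors were thus far apart for this gene in every library.

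In the vascular class Slc6a6 sat in endothelial-like nuclei, the lining of the vessels, with 15, 30, 32 and 26 UMIs in Control 1, Control 2, CrT-KO 1 and CrT-KO 2. That amounts to 905 to 1772 CPM in groups of 7 to 30 nuclei per library. Pericyte-like nuclei, the mural cells, held 0, 0, 2 and 1 UMIs in the same order. Slc6a13 took the opposite place. Its 16, 25, 22 and 4 UMIs in fibroblast-like nuclei were 67 of the 105 UMIs that this GABA and taurine transporter gene gave over all nuclei, while endothelial-like nuclei held 2 and pericyte-like nuclei 4. The fibroblast-like groups numbered 8, 17, 19 and 6 nuclei, too few per library for a test within them. The fibroblast-like nuclei were named from a list that held the markers given next, so their levels do not test the name. Where they were detected, the fibroblast markers Dcn, Cped1, Ranbp3l and Slc22a6 were highest by CPM in these nuclei. Bnc2, also a fibroblast marker, gave 7, 18, 12 and 3 UMIs there and 67, 218, 156 and 47 in the unnamed vascular nuclei. Those unnamed nuclei held 0 UMIs of Slc6a13 in each library, so not every group with a fibroblast marker held it.

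**Figure D2:**
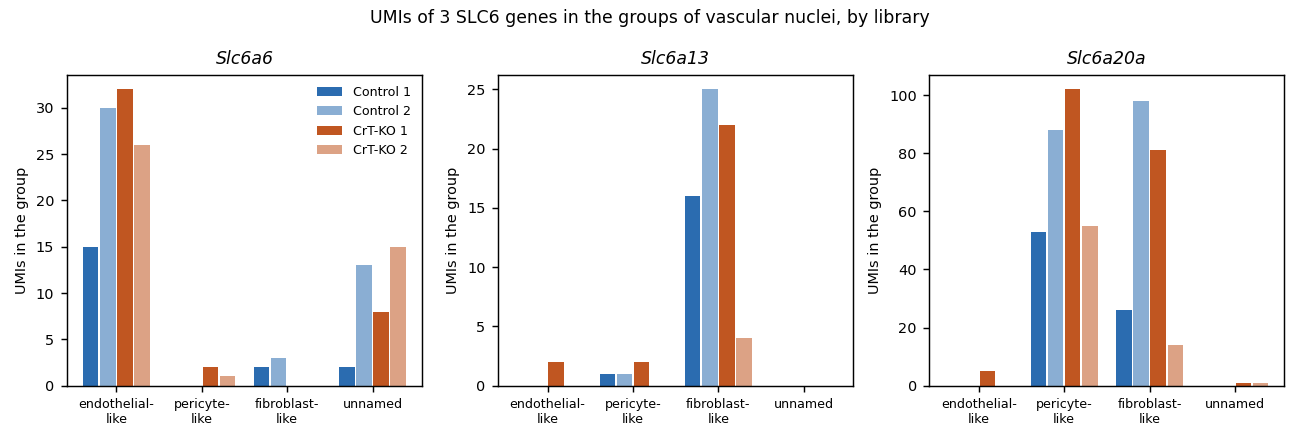
UMIs of Slc6a6, Slc6a13 and, for comparison, Slc6a20a in the 4 groups of vascular nuclei (horizontal axis), 1 bar per library, blue for Control and orange for CrT-KO, dark for replicate 1 and light for replicate 2. Slc6a6 is mostly in endothelial-like nuclei, Slc6a13 in fibroblast-like nuclei, and Slc6a20a in pericyte-like and fibroblast-like nuclei.

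Slc6a13 was at 0 UMIs in astrocytes and in OPCs, which allows up to 2.45 CPM and 1.54 CPM (3 counts of the class total). It gave 13 UMIs among the 134394950 UMIs of excitatory neurons, and 9 of its 10 UMIs in inhibitory neurons came from Control 2. Over the whole vascular class its level was 236 and 139 CPM in Control and 135 and 33.4 CPM in CrT-KO, and it lay apart from the others of the 17 populations.

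Slc6a11, the astrocytic GABA transporter gene, was highest in astrocytes, with 51 and 107 UMIs (373 and 243 CPM) in Control and 111 and 66 UMIs (334 and 209 CPM) in CrT-KO. The libraries of each genotype differed from one another more than the genotypes did. Astrocytes lay apart from the others of the 17 populations, at 5.03 to 8.45 times the level of L5/6 NP-like nuclei, which came next. Because astrocytes were 500 of the 34458 nuclei, they still held just 11.5% of the 2902 UMIs of Slc6a11, and excitatory neurons held 53.7%.

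The neuronal UMIs of Slc6a11 were unevenly placed. L5/6 NP-like nuclei held 44.2 and 30.1 CPM in Control and 46.5 and 41.6 CPM in CrT-KO, and L6 CT-like nuclei 27.1 and 23.4 CPM in Control and 25.9 and 26.3 CPM in CrT-KO. L5 ET-like nuclei, from the same deep layers, held 1.40 to 3.19 CPM, so that the L6 CT-like level was 8.31 to 16.7 times higher within a library. Among the interneurons LAMP5-like nuclei held 25.8 to 57.4 CPM and PV-like nuclei 2.42 to 5.00 CPM, a ratio of 5.15 to 21.7. In both pairs the libraries did not overlap. OPCs held 9.95 to 33.6 CPM, in the mean 227% of the excitatory level and above every excitatory marker there. Oligodendrocytes stood at 25.8%, beside a marker median of 23.5%.

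Slc6a9, the GlyT1 gene, gave 1279 UMIs and, of the 17 populations, was highest in oligodendrocytes, with 76, 75, 75 and 68 UMIs or 47.1, 34.1, 44.5 and 38.7 CPM in Control 1, Control 2, CrT-KO 1 and CrT-KO 2. That was 7.66 to 10.9 times the level in excitatory neurons and lay apart from the other classes and subclasses among the 17 populations ordered. Outside that order, the small groups of fibroblast-like nuclei held 0, 4, 4 and 0 UMIs of Slc6a9, or 0 to 142 CPM, which overlaps the oligodendrocyte range. OPCs held 9.05 to 23.9 CPM, and astrocytes held 0, 6, 9 and 1 UMIs, too few to place them in the order. Microglia held 0 UMIs of Slc6a9 in each library, which allows up to 1.33 CPM. Among the neurons SST-like and PV-like nuclei came first at 8.65 to 13.8 and 6.78 to 10.0 CPM.

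Between genes, levels were compared per kilobase of gene body, because longer genes give more intronic UMIs. In excitatory neurons Slc6a17 stood at a median of 3.20 CPM per kilobase, Slc6a7 at 1.83, Slc6a6 at 1.45 and Slc6a15 at 0.854. Slc6a9 and Slc6a11 were at 0.105 and 0.0973 CPM per kilobase there. In oligodendrocytes the order was led by Slc6a6 at 2.14 and Slc6a9 at 1.02 CPM per kilobase. In astrocytes Slc6a11 stood at 2.43 CPM per kilobase.

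Other members of the family were measured in the same nuclei. Slc6a20a, a carrier of imino acids such as proline, was at 2399 to 2959 CPM in pericyte-like and 1837 to 3486 CPM in fibroblast-like nuclei, and at 0.534 to 0.855 CPM in excitatory neurons. Slc6a20b was at 4.72 to 5.68 CPM over all nuclei. The genes of the monoamine transporters Slc6a2, Slc6a3 and Slc6a4 gave 9, 15 and 37 UMIs over all nuclei, and the glycine transporter gene Slc6a5 gave 4. Slc6a12 (betaine and GABA) gave 15 UMIs, 9 of them in vascular nuclei, Slc6a14 gave 3, Slc6a16 gave 137 and Slc6a19 gave 21. Slc6a18 gave 0 UMIs, which allows up to 0.0140 CPM over all nuclei.

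For each gene the 3 most similar profiles were sought by Pearson's r of log2(CPM + 1) over 17 populations among the 9369 genes that reached 20 CPM in at least one; the populations share libraries, so r is a description. Slc6a17 was most like Iqsec3 (r = 0.986), Pacsin1 (0.973) and Morc2b (0.970), and Slc6a15 most like Disp2 (0.955), Kif5a (0.955) and Far2 (0.943). Slc6a7 was most like Iqsec3 (0.925), Slc6a17 (0.918) and Agbl4 (0.912), and Slc6a15 and Slc6a17 stood at r = 0.918 with each other. Slc6a6 had no close match, with Kank3 (0.803), Ascc3 (0.785) and Ywhaz (0.781) first. Slc6a9 was most like Pcbp4 (0.893), Glrb (0.863), which encodes the beta subunit of the glycine receptor, and Kif3a (0.856). Slc6a11 was most like Fads2 (0.856), Sqle (0.852) and Dlg5 (0.819), the first a fatty acid desaturase and the second an enzyme of sterol synthesis. Slc6a13 was most like Tfap2b (0.995), Adgrl4 (0.989) and Prdm6 (0.988), a match set by the single population that expresses it.

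The comparison of genotypes asked whether loss of the creatine transporter went with a different level of its relatives. No member passed an adjusted p of 0.1 in any class, by edgeR's quasi-likelihood test on UMIs summed per library with Benjamini-Hochberg adjustment over all genes tested. In excitatory neurons 0 of the 6 members tested were called, where 0.296% of 13867 genes were. Those 41 genes were 19 higher and 22 lower in CrT-KO, and with total UMIs in place of TMM scaling 3 were higher and 9 lower. In inhibitory neurons 0 of 6 were called, with 0.0853% of all genes called. In oligodendrocytes 0 of 4 were called (0.21% of all genes), in OPCs 0 of 3 (0.0975%), in microglia 0 of 2 (0.0413%), in astrocytes 0 of 2 (0.02%) and in endothelial cells and pericytes 0 of 4 (0.0%). Over all nuclei 0 of 7 were called, with 0.02% of all genes. With so few genes called, a count of 0 members is what the background share gives.

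The same held in the 12 subclasses, with 0 members called in each. The share of all genes called was 0.519% in L2/3-like, 0.373% in L4/5 IT-like, 0.0317% in L5 ET-like, 0.015% in L5/6 NP-like, 0.0569% in L6 CT-like, 0.0523% in L6 IT-like and 0.0127% in L6b-like nuclei. It was 0.0% in PV-like, 0.0667% in SST-like, 0.0% in VIP-like, 0.017% in LAMP5-like and 0.186% in MSN-like nuclei. At an unadjusted p under 0.05, edgeR passed 3 of 6 members in excitatory neurons, where 1217 of 13867 genes passed. In inhibitory neurons it passed 1 of 6 members and 662 of 12898 genes. Over all nuclei it passed 3 of 7 members and 1000 of 15018 genes. DESeq2 called 2 of the 97 combinations of member and population, both of Slc6a15. They were in excitatory neurons, where it called 74 of 13867 genes, and over all nuclei, where it called 59 of 15018.

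**Figure D3:**
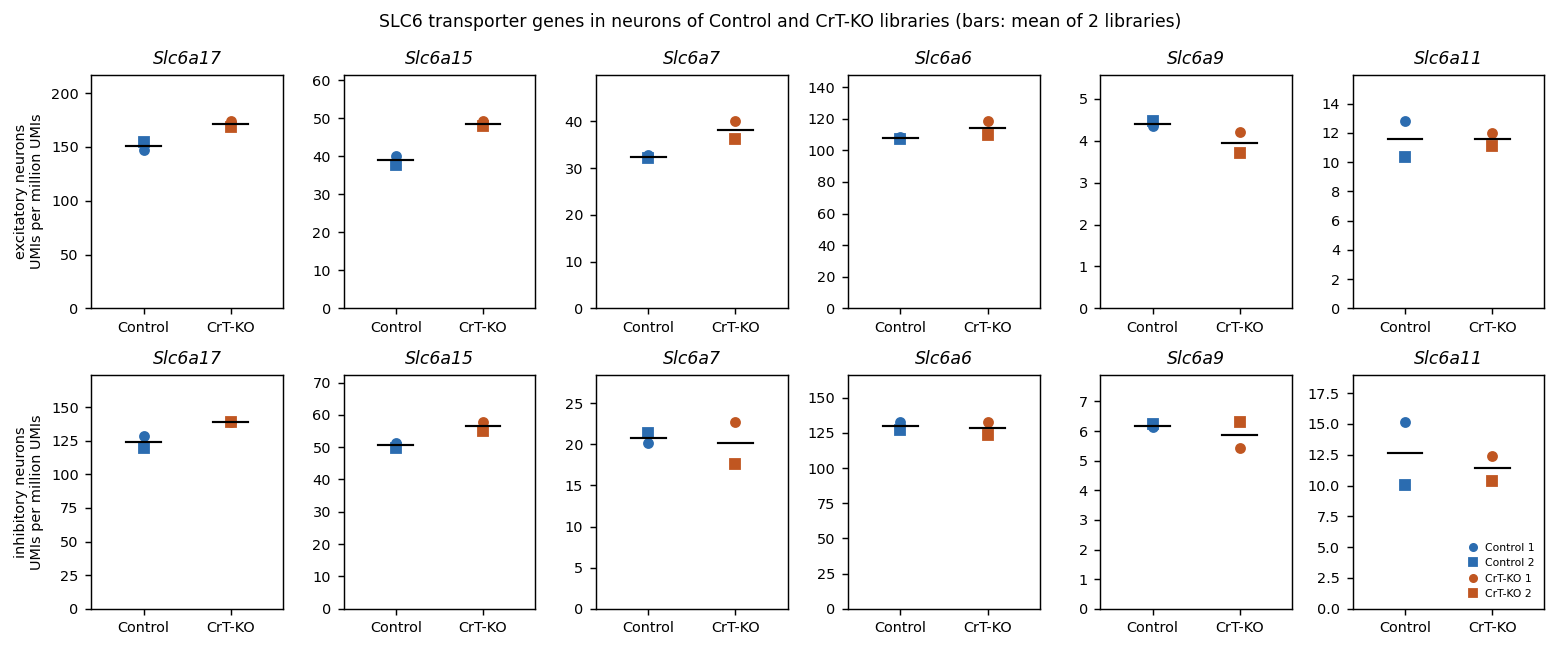
Level of 6 members in excitatory (top) and inhibitory neurons (bottom) in CPM, with each vertical axis starting at 0; each point is 1 library and each bar the mean of 2 libraries of a genotype. In excitatory neurons the CrT-KO libraries of Slc6a17, Slc6a15, Slc6a7 and Slc6a6 lie above both Control libraries, and the points of Slc6a11 overlap between genotypes.

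Slc6a15 came closest to the threshold. In excitatory neurons it was at 40.2 and 37.7 CPM in Control and 49.2 and 48.0 CPM in CrT-KO, so both CrT-KO libraries lay above both Control libraries. The log2 difference was 0.37 (SE 0.0783, 95% interval 0.20 to 0.54, adjusted p = 0.118 by edgeR). In L4/5 IT-like nuclei it was at 39.5 and 37.7 CPM in Control and 49.6 and 54.8 CPM in CrT-KO, a log2 difference of 0.47 (SE 0.103, adjusted p = 0.108). Without Control 1 the log2 difference of Slc6a15 in excitatory neurons was 0.39. Without CrT-KO 1, and without CrT-KO 2, edgeR did not call even Slc6a8 there. Those runs therefore cannot show whether the difference of Slc6a15 rests on 1 CrT-KO library. In L4/5 IT-like nuclei the adjusted p by edgeR was 0.0397 without Control 1, 0.0849 without Control 2, 0.0123 without CrT-KO 1 and 0.209 without CrT-KO 2. DESeq2 gave an adjusted p of 0.0548 in excitatory neurons and 0.196 in L4/5 IT-like nuclei. The point estimate for Slc6a15 was above 0 in all 7 excitatory subclasses and in all 5 inhibitory ones.

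Slc6a17 and Slc6a7 had smaller differences of the same sign. For Slc6a17 the mean was 151 ± 5.52 CPM in Control and 171 ± 3.61 CPM in CrT-KO excitatory neurons (SD, n = 2), a log2 difference of 0.23 (SE 0.0701, 95% interval 0.08 to 0.38). Its adjusted p was 0.307 by edgeR. For Slc6a7 excitatory neurons held 32.8 and 32.1 CPM in Control and 40.0 and 36.3 CPM in CrT-KO, a log2 difference of 0.28 (SE 0.0844, 95% interval 0.10 to 0.46), with an adjusted p of 0.303. Slc6a6 was at 108 and 107 CPM in Control and 118 and 110 CPM in CrT-KO there, a log2 difference of 0.13 (95% interval −0.02 to 0.28).

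Of the 6 members tested in excitatory neurons, 4 had both CrT-KO libraries above both Control libraries, and in inhibitory neurons 2 of 6 did. Over all genes tested this arrangement was found for 18.5% in excitatory and 15.6% in inhibitory neurons. The median log2 difference of the members was 0.18 in excitatory and −0.01 in inhibitory neurons, where the median of all genes was −0.006 and −0.005. Each library contributes to every member, so their shared sign is not independent evidence.

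Estimates for 2 members in excitatory neurons were near 0. Slc6a11 had a log2 difference of 0.05 (95% interval −0.22 to 0.32) and Slc6a9 of −0.10 (95% interval −0.45 to 0.25). Both intervals include a difference as large as the 0.23 of Slc6a17, so these data do not show that either gene was unaffected.

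**Figure D4:**
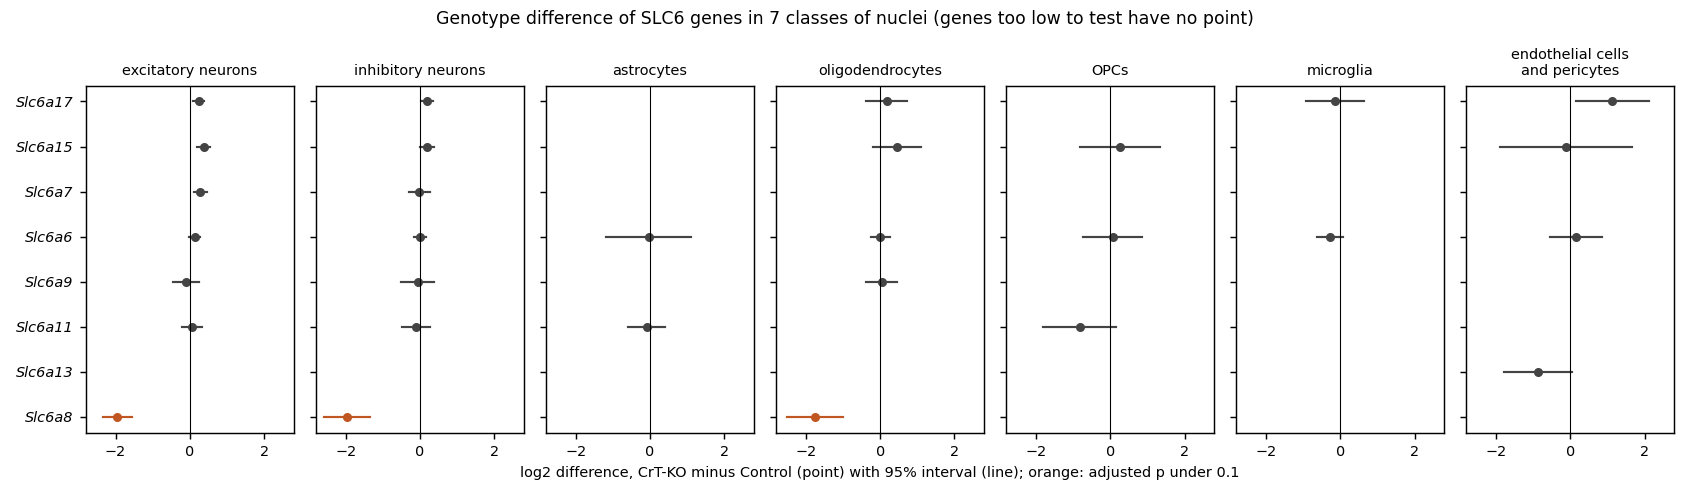
Log2 difference of each member, and of Slc6a8 for comparison, between CrT-KO and Control in the 7 classes (panels); points are edgeR estimates, lines their 95% intervals, and orange marks an adjusted p under 0.1. Slc6a8 is orange in excitatory neurons, inhibitory neurons and oligodendrocytes with log2 differences of −1.95, −1.97 and −1.76, no member is orange, and the intervals are narrow in neurons and wide in the small glial and vascular classes.

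In inhibitory neurons the log2 difference was 0.18 for Slc6a15 (95% interval −0.01 to 0.37) and 0.18 for Slc6a17 (95% interval 0.02 to 0.34), both with CrT-KO libraries above the Control libraries. Slc6a7 was at 20.2 and 21.4 CPM in Control and 22.8 and 17.6 CPM in CrT-KO, with overlapping genotypes and a log2 difference of −0.02 (95% interval −0.30 to 0.27). In PV-like nuclei Slc6a7 was at 31.4 and 34.9 CPM in Control and 24.6 and 28.5 CPM in CrT-KO (log2 difference −0.33, 95% interval −0.76 to 0.10, adjusted p = 0.933 by edgeR).

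Larger point estimates came from populations with fewer UMIs. In L6 IT-like nuclei the log2 difference was 0.73 for Slc6a15 (95% interval 0.16 to 1.31, adjusted p = 0.663 by edgeR) and 0.63 for Slc6a17 (95% interval 0.24 to 1.01, adjusted p = 0.428). In L6 CT-like nuclei Slc6a9 gave 20 and 20 UMIs in Control and 11 and 9 UMIs in CrT-KO, with a log2 difference of −1.04 (95% interval −1.88 to −0.20, adjusted p = 0.572 by edgeR). In the class of endothelial cells and pericytes the difference of Slc6a17 was 1.13 (95% interval 0.15 to 2.12, adjusted p = 0.903 by edgeR), on 53 UMIs in all. That class included the unnamed vascular nuclei, so the value is not one of endothelial cells and pericytes alone. The summed level of the 12 excitatory markers in that class was 1613 and 1451 CPM in Control and 1629 and 2019 CPM in CrT-KO, also higher in both CrT-KO libraries, and its part in the result was not tested.

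Whether the genotype difference itself differed between classes was tested with library as a block. Between inhibitory and excitatory neurons it was lower by 0.31 on the log2 scale for Slc6a7 in the inhibitory class (inhibitory minus excitatory −0.31, SE 0.109, 95% interval −0.54 to −0.07), with an adjusted p of 0.536 by edgeR. For Slc6a15 the value was −0.19 (SE 0.0763, adjusted p = 0.627) and for Slc6a17 −0.05 (SE 0.0695, adjusted p = 0.934). No member was called, with 0.085% of all 14112 genes called. Between oligodendrocytes and excitatory neurons no member was called either, with 0.255% of 13711 genes called.

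Outside the neurons the estimates were less precise. Slc6a6 in microglia was lower in both CrT-KO libraries than in both Control libraries, with a log2 difference of −0.27 (SE 0.170, 95% interval −0.62 to 0.07, adjusted p = 0.859 by edgeR). The 10 oligodendrocyte markers summed to 317 and 356 CPM in Control and 283 and 273 CPM in CrT-KO microglia, lower in the same libraries. Inhibitory markers there were at 854 and 978 CPM in Control and 1092 and 1108 CPM in CrT-KO, and astrocyte markers at 623 and 747 CPM and at 807 and 766 CPM. Vascular markers were at 64.2 and 76.4 CPM in Control and 61.8 and 26.0 CPM in CrT-KO microglia. The part of these markers in the result was not tested. In oligodendrocytes the difference was 0.01 for Slc6a6 (95% interval −0.25 to 0.26) and 0.04 for Slc6a9 (95% interval −0.38 to 0.46). Slc6a11 in astrocytes had a difference of −0.09 (95% interval −0.58 to 0.40). In OPCs Slc6a11 was lower in both CrT-KO libraries than in both Control libraries, on 51 UMIs in all (adjusted p = 0.846 by edgeR). That arrangement was found for 1115 of the 6155 genes tested in OPCs. In the vascular class the difference of Slc6a13 was −0.87 (95% interval −1.77 to 0.03, adjusted p = 0.968 by edgeR), and the CrT-KO 2 library, the lowest, had 6 fibroblast-like nuclei among its 102 vascular nuclei against 8 of 61, 17 of 144 and 19 of 145 in Control 1, Control 2 and CrT-KO 1. Within the fibroblast-like nuclei the level of Slc6a13 was 1518 and 889 CPM in Control and 730 and 525 CPM in CrT-KO, on 16, 25, 22 and 4 UMIs. The part of the number of these nuclei, or of the level within them, in the result was not tested. Without CrT-KO 1 the difference of Slc6a13 was −2.25 with an adjusted p of 0.0510.

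In excitatory neurons the summed level of the markers of each of the 6 other classes overlapped between the genotypes. The summed level of the 10 oligodendrocyte markers was 123 and 123 CPM in Control and 130 and 110 CPM in CrT-KO excitatory neurons. That of the 12 markers of excitatory neurons themselves was 4911 and 4633 CPM in Control and 4711 and 4626 CPM in CrT-KO. The 10 microglial markers were at 48.6 and 44.1 CPM in Control and 41.8 and 44.3 CPM in CrT-KO.

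In other classes some marker sums did not overlap between the genotypes. In inhibitory neurons OPC markers were at 2108 and 2097 CPM in Control and 2145 and 2207 CPM in CrT-KO, astrocyte markers at 588 and 592 CPM and at 567 and 563 CPM, and oligodendrocyte markers at 106 and 131 CPM and at 101 and 99.2 CPM. In oligodendrocytes inhibitory markers were at 3723 and 3489 CPM in Control and 3140 and 3056 CPM in CrT-KO, and astrocyte markers at 314 and 322 CPM and at 433 and 413 CPM. In astrocytes excitatory markers were at 2663 and 2589 CPM in Control and 2722 and 2701 CPM in CrT-KO, inhibitory markers at 644 and 660 CPM and at 825 and 724 CPM, and oligodendrocyte markers at 205 and 180 CPM and at 99.4 and 121 CPM. In OPCs oligodendrocyte markers were at 1161 and 720 CPM in Control and 420 and 561 CPM in CrT-KO, and microglial markers at 71.8 and 42.4 CPM and at 137 and 72.4 CPM. In endothelial cells and pericytes OPC markers were at 626 and 710 CPM in Control and 929 and 851 CPM in CrT-KO. Their part in the differences of the members in these classes was not tested.

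The genes that handle the same substrates did not pass the test in any of the 7 classes. The list for taurine and osmolytes had 0 of 11 tested genes called in excitatory neurons, with a median log2 difference of −0.01 beside −0.006 for all genes. The list for glycine had 0 of 13 called (median −0.13), that for GABA synthesis and uptake 0 of 10 (median 0.01), that for proline 0 of 6 (median −0.07) and that for neutral amino acids 0 of 14 (median 0.02). In inhibitory neurons 0 of 10, 0 of 13, 0 of 9, 0 of 6 and 0 of 14 were called, in the same order. One gene of the lists was called in excitatory nuclei that matched no subclass: Glra2, a glycine receptor subunit, fell by 0.93 on the log2 scale there (SE 0.264, adjusted p = 0.0862 by edgeR). The call was lost without Control 2 (−0.67, adjusted p = 0.570) and without CrT-KO 2 (−0.64, adjusted p = 0.607), and the difference was −0.03 (adjusted p = 0.990) when nuclei were grouped more coarsely. These lists were made with earlier results of the data known.

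Some of these partner genes had high levels in the same classes as the transporters, and others in different classes. Csad, an enzyme of taurine synthesis, was highest in microglia at 141 to 204 CPM, beside the 145 to 189 CPM of Slc6a6 there. Other genes of the same list were highest elsewhere. Cdo1 was at 124 to 169 CPM in OPCs and 3.12 to 8.13 CPM in microglia. Fmo1 was at 29.3 to 54.6 CPM in astrocytes, and Ado at 6.20 to 9.56 CPM in oligodendrocytes. Gldc, the decarboxylase of the glycine cleavage system, was at 263 to 317 CPM in astrocytes and at 0.455 to 2.97 CPM in the oligodendrocytes that held most Slc6a9 per UMI. Prodh, which starts the breakdown of proline, was at 73.0 to 139 CPM in astrocytes and 18.1 to 21.8 CPM in excitatory neurons, where Slc6a7 was highest. Slc7a5, a carrier of large neutral amino acids, was at 72.6 to 117 CPM in the vascular class and 8.02 to 12.8 CPM in excitatory neurons. Glul, glutamine synthetase, was at 382 to 482 CPM in astrocytes, the class with most Slc6a11.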

How the data were processed

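The deposited tables hold UMI counts per gene and nucleus for 4 libraries. The authors aligned the reads with Cell Ranger 3.1.0 to a GRCm38 (mm10) reference in which each gene body was treated as an exon, and analysed the counts with Seurat 3.1.4. The counts were used here as deposited, with no value from the authors' own tests.

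Predicted doublets were removed with Scrublet (scanpy 1.11.5). Nuclei were clustered on 3000 variable genes without SLC6 genes (30 components, 20 neighbours, Leiden resolution 1.0) and named from marker lists. A name needed 3 detected markers and no excess of another class's markers among the top 10 genes, and the score limits (1.0 for glia and vessels, 0.5 for subclasses) were set after seeing the clusters. Clusters without a class name held 1710 nuclei, and nuclei without a subclass name stayed in the sums of their class. Sums of UMIs over the nuclei of each population in each library were tested with edgeR 4.0.16 (quasi-likelihood, TMM, filterByExpr, genotype as the term, threshold 0.1, populations with at least 20 nuclei in every library). DESeq2 1.42.0 was an alternative. The method was tested on simulated counts of excitatory neurons, with changes larger than those of the members there. That run does not bear on differences as small as theirs or on smaller populations. The 7 genes and all lists were chosen with earlier results of these data known. Named genes were the members, Slc6a8, the rest of the family (1 gene of it is not reported here), the 3 closest profiles per member (at least 20 CPM in some population) and called genes of the pathway lists; partner genes whose levels are given were chosen after their values were seen. Intervals cover counting error and the spread between 2 animals a group. The filter on low counts left 2 members to test in astrocytes, 2 in microglia, 3 in OPCs and 4 each in oligodendrocytes and vascular nuclei.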

Additional observations from a re-analysis of the deposited data

How the results depend on the processing

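Over 97 combinations of member and population, no member was called by edgeR in the reported analysis. The count stayed at 0 at a threshold of 0.05, with total UMIs in place of TMM, with doublets kept and with at least 1000 UMIs per nucleus. It was 2 with DESeq2, 1 with no filter on low counts and 1 at Leiden resolution 0.5, where vascular nuclei had no name and gave no value. Leaving out 1 library gave 0 to 2 calls. With the replicate number as a replicate block 7 were called, for Slc6a15, Slc6a17 and Slc6a7 in excitatory neurons and for Slc6a15 and Slc6a17 in L2/3-like nuclei and over all nuclei, and the number of genes called in excitatory neurons was 744 in place of 41. Deviations of same-numbered libraries correlated at 0.253 there, but the labels tie the numbers to nothing shared, and 2 pairs do not show a pairing. The number of genes called in excitatory neurons was 157 without Control 1, 129 without Control 2 and 0 without either CrT-KO library, 74 with DESeq2, 17 at 0.05, 12 with total UMIs, 4 without the filter and 12 at resolution 0.5. Between classes no member's difference was called under any alternative run.

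Signs near 0 were unstable. Leaving out 1 library put the log2 difference of Slc6a11 in astrocytes between −0.42 and 0.17 (0.13 without Control 1), that of Slc6a9 in oligodendrocytes between −0.19 and 0.26 (−0.04 without CrT-KO 1) and that of Slc6a6 in oligodendrocytes between −0.050 and 0.059. The last was −0.0042 without the filter and −0.0094 with at least 1000 UMIs per nucleus. The cause was not tested. Of the mean levels, Slc6a7 in excitatory neurons was 30.6 CPM at resolution 0.5, Slc6a6 in endothelial cells and pericytes 212 CPM with at least 1000 UMIs per nucleus, and Slc6a9 in oligodendrocytes 33.8 CPM with doublets kept. The call of Slc6a8 held over all nuclei under every alternative run and was lost in oligodendrocytes at 0.05, without the filter, without Control 2, without CrT-KO 1, with DESeq2 and with doublets kept. After the filter on low counts, 2 to 4 members could be tested in each glial and vascular class.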
